A study of Mus musculus with 11 samples.

Results

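The CREB3 family and the unfolded protein response were examined in mPFC CRF1+ neurons of naïve and withdrawn mice through 10 genes, chosen by name out of the 53465 genes in the count files. They were 4 members of the CREB3 family (Creb3, Creb3l1, Creb3l2 and Creb3l4) and 6 genes of the unfolded protein response (Atf6, Ern1, Xbp1, Atf4, Ddit3 and Hspa5). Creb3l3, the other gene of the family, was not among the 10 and is given where the family is described. All 10 were found in the files.

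The sequenced cells were GFP-positive cells sorted by fluorescence from the medial prefrontal cortex (mPFC) of single adult male CRF1:GFP mice, a reporter line in which GFP marks cells that express the corticotropin-releasing factor receptor CRF1. The 5 withdrawn mice had been exposed to ethanol vapor intermittently for 5 to 6 weeks, with ethanol and the alcohol dehydrogenase inhibitor pyrazole injected before exposure, and were 5 to 8 days into forced abstinence. The 6 naïve mice had received pyrazole and air. All mice were at least 10 weeks old and carried the reporter, and each library came from 1 mouse, so that p-values measure the spread between mice. Mice were grouped by title and treatment. A second label of withdrawn mice 3, 4 and 5 calls them control, and the summary of the deposit's design counts 6 ethanol mice, so the members, the list counts and the DESeq2 calls of list genes are also given without these 3 mice.

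The unfolded protein response is the program by which a cell adjusts the folding capacity of its endoplasmic reticulum (ER) to the load of new protein. Several ER membrane proteins sense misfolded protein. IRE1 (gene Ern1) splices the Xbp1 mRNA so that it encodes an active transcription factor, PERK (Eif2ak3) phosphorylates eIF2α and so favors translation of Atf4, and ATF6 travels to the Golgi, where the site-1 and site-2 proteases (Mbtps1 and Mbtps2) release its transcription factor domain. The CREB3 family consists of ER membrane transcription factors that are released by the same proteases, and in many tissues its members raise secretory capacity. In the brain this program matters in neurons with a heavy secretory or synaptic protein load and in glia. Splicing, translation and proteolytic release leave no trace in counts per gene, so the values below are mRNA levels of the components and not the activity of the pathway.

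Of the 8 promoters that could be searched, that of Hspa5 carries the known response elements, and it is shown because Hspa5, which encodes the ER chaperone BiP, is the standard readout of the response. The sequence is the 250 bases before the RefSeq transcription start (GRCm38.p6, chr2:34771840-34772089, plus strand, 5′ to 3′). Capitals mark the UPRE core TGACGTG, a site of XBP1 and ATF6, and both ends of the ER stress response element (ERSE), in which ATF6 or XBP1 acts with NF-Y. The core begins 157 bases and the ERSE 65 bases before the start.
Hspa5: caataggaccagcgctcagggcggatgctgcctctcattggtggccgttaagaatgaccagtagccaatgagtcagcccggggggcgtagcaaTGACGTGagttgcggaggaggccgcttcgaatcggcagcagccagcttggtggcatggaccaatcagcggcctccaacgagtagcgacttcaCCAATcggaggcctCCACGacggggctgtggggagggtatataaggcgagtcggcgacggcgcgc

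The RefSeq table of promoters (250 bases before to 50 after each start) held 8 of the 10 genes, without Atf6 and Creb3l1. Searched on both strands, the ERSE (CCAAT, then 9 bases of any kind, then CCACG) occurred in the promoters of 37 of 27025 genes (0.137%), and the UPRE core in 601 (2.22%). The ERSE-II (ATTGG, 1 base of any kind, CCACG) occurred in 12 genes (0.0444%), the CRE (TGAC directly followed by GTCA) in 549 (2.03%), and the CARE of ATF4 (TGATG, 1 base of any kind, AA, 1 base of any kind) in 1215 (4.5%). Among the 8 genes only Hspa5 held any of the 5 motifs, and none of the CREB3 family windows did. A match is a description of letters and not of binding.

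The libraries held 9970161 to 17855514 counts on genes in naïve mice and 7351567 to 22244869 in withdrawn mice. A count of 3 in one library corresponded to 0.135 to 0.408 CPM, which is a count divided by the library's counts and scaled up. This floor takes in counting error alone. Genes with at least 1 count ranged from 15585 in naïve mouse 5 to 31830 in withdrawn mouse 4. Summed markers of glutamatergic neurons reached 1983 to 3330 CPM in naïve and 1404 to 2948 CPM in withdrawn mice. Crhr1, the gene of CRF1, differed by −0.05 on the log2 scale (95% interval −0.61 to 0.50). Levels below are CPM on library sizes normalized by TMM. The groups were compared by the quasi-likelihood test of edgeR over 17093 genes. The call required a log2 fold change beyond 0.6 together with an adjusted p no higher than 0.05.

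Creb3l2 and Creb3l4 were the genes of the family whose levels separated the groups most, both being higher in withdrawn mice. Creb3l2 (BBF2H7, which drives genes of the secretory pathway in cartilage) was 6.55-fold higher (95% interval of the log2 fold change 1.25 to 4.17), a log2 fold change of 2.71 that was 1.19 once the level of fibroblast markers was a covariate. Creb3l4 (AIbZIP, best known from prostate and testis) went from 3 counts over all naïve mice to 96 over all withdrawn mice. None of the other 8 genes passed a test of either kind. The edgeR test called none of the 9 genes that passed its low-count filter, against 1 of all 17093 genes (0.00585%). DESeq2, the tool the study used, called Creb3l2 and Creb3l4 among 362 of 40831 genes (0.887%), with 342 (0.838%) in the direction of higher and 20 (0.049%) of lower levels. With the fibroblast covariate, the DESeq2 call held for Creb3l4 (adjusted p = 0.0290) and not for Creb3l2 (adjusted p = 0.479). It held for neither without withdrawn mice 3, 4 and 5. Since the study's own comparison used these same mice, this is not independent evidence for either gene.

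**Figure D1:**
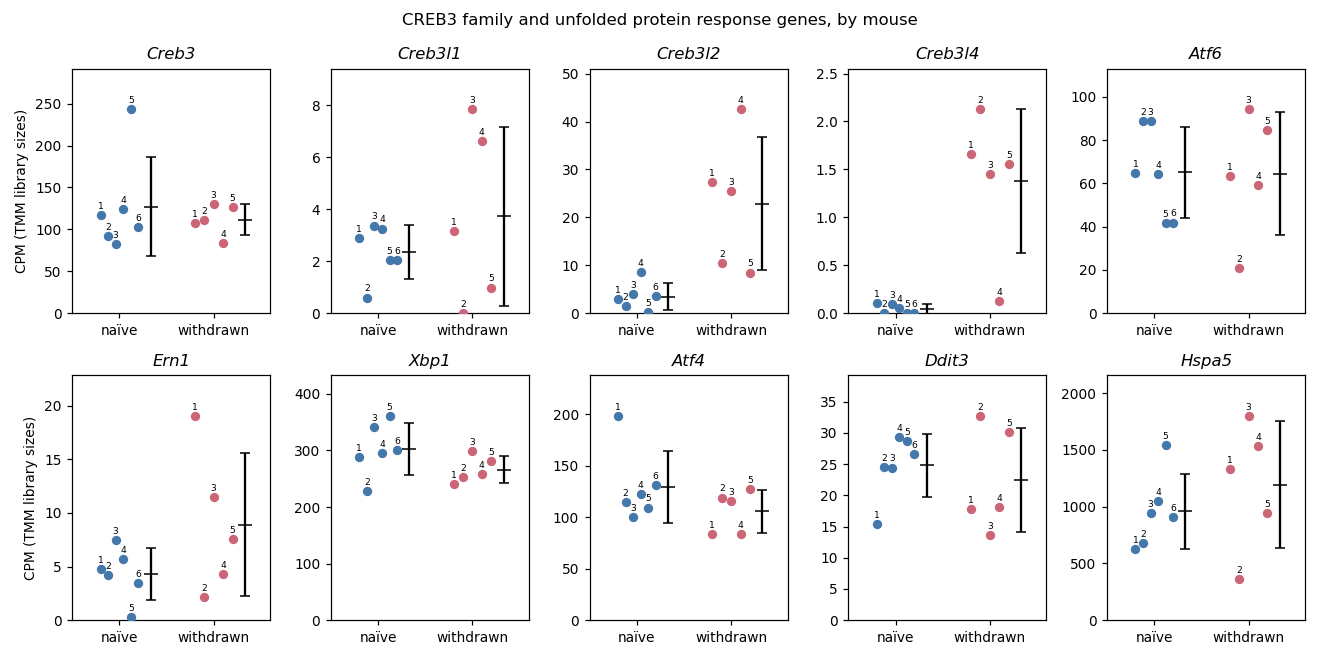
Level of each of the 10 genes in every mouse, in CPM on TMM-normalized library sizes, for 6 naïve (blue) and 5 withdrawn (red) mice, with mean and SD beside each group and mouse numbers at the points. Creb3l2 and Creb3l4 lie mostly above the naïve mice in withdrawal, with Creb3l4 near 0 in withdrawn mouse 4. On this scale the groups overlap for every gene except Creb3l4, for Creb3l2 through withdrawn mouse 5 alone.

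Creb3l2 (ENSMUSG00000038648, chr6:37327255-37442146, minus strand, GRCm38) lay between 0.339 and 8.62 CPM in naïve mice with a median of 3.21. The withdrawn mice 1 to 5 had 27.4, 10.5, 25.5, 42.5 and 8.49 CPM. Thus 4 of 5 withdrawn mice lay above the highest naïve mouse, and withdrawn mouse 5 lay just below naïve mouse 4. The means were 3.48 ± 2.86 CPM (SD, n = 6) and 22.9 ± 13.9 CPM (SD, n = 5). The log2 fold change was 2.71 (SE 0.68), with an unadjusted p of 0.00140 and an adjusted p of 0.202 in edgeR. DESeq2 gave 2.77 (SE 0.65) with an adjusted p of 0.00301, and a two-sided exact permutation test of the mean log2 CPM over the 462 splits of the mice gave p = 0.00649.

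Whether the groups overlapped depended on the scaling of the libraries. With TMM the highest naïve mouse had 8.62 and the lowest withdrawn mouse 8.49 CPM, and with DESeq2 size factors 8.28 and 8.21. Without a scaling factor they had 8.29 and 8.43, so that all 5 withdrawn mice lay above. Groups that do not overlap, with the withdrawn mice higher, were found for 118 of the 17093 genes tested (0.69%), and with the withdrawn mice lower for 44 (0.257%). Without withdrawn mice 3, 4 and 5 Creb3l2 differed by 2.40 on the log2 scale in edgeR (adjusted p = 0.789) and by 2.49 in DESeq2 (adjusted p = 0.199), and the exact permutation p was 0.0714. Hence the DESeq2 call did not hold without the 3 mice whose labels disagree, while the direction did.

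Creb3l4 (ENSMUSG00000027938, chr3:90237500-90243512, minus strand) was near the limit of detection. In naïve mice 1, 3 and 4 a single count each was recorded and in the other 3 mice none, where 3 counts would correspond to 0.165 to 0.322 CPM in the naïve libraries. The withdrawn mice 1 to 5 had 23, 19, 31, 1 and 22 counts, or 1.66, 2.13, 1.45, 0.123 and 1.56 CPM. Thus 4 of 5 withdrawn mice had at least 19 counts, and withdrawn mouse 4, with 1 count, had no more than naïve mice 1, 3 and 4. The mean of the withdrawn mice was 1.38 ± 0.75 CPM (SD, n = 5), and no naïve mouse was above 0.107 CPM. Against a floor of 3 counts per naïve library, which averages 0.222 CPM, the mean of the withdrawn mice was 6.23-fold higher. This ratio leaves out the spread of the withdrawn mice and is therefore not a lower bound.

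Creb3l4 had too few counts to pass the filter of the main test. With all genes kept in, edgeR gave a log2 fold change of 4.84 (adjusted p = 0.311). DESeq2 gave 5.28 with an adjusted p of 0.00109, and the exact permutation test gave p = 0.00216, the smallest that 462 splits allow. The groups did not overlap under any of 3 scalings, but in withdrawn mouse 4 this rested on 1 count. The share of 0.69% given above for groups that do not overlap covers only genes that passed the filter. No such share was taken for genes with as few counts as Creb3l4. Without withdrawn mice 3, 4 and 5, Creb3l4 differed by 5.23 in edgeR (adjusted p = 0.647), and DESeq2 gave 5.74 with an unadjusted p of 0.000509 but no adjusted p, hence no call. The exact permutation p was then 0.0357, the smallest that the 28 splits of 8 mice allow.

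The other family members did not follow. Creb3 (Luman; ENSMUSG00000028466, chr4:43562332-43567060, plus strand) was by far the most abundant of the family, at 82.5 to 243.1 CPM in naïve mice (median 109.9) and at 107.3, 110.8, 130.4, 83.6 and 126.5 CPM in withdrawn mice 1 to 5. Naïve mouse 5 was far above all others, and the remaining mice of both groups lay within one range. Its log2 fold change was −0.18 (95% interval −0.74 to 0.37, adjusted p = 0.935 in edgeR) and without naïve mouse 5 it was 0.11. Part of its exons overlaps Gba2 and Tln1 on the other strand, and whether the counting used strand is not given in the sources used here.

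Creb3l1 (OASIS, an astrocyte and osteoblast factor that drives collagen genes in bone; chr2:91982328-92024502, minus strand) lay at 0.604 to 3.37 CPM in naïve mice (median 2.47). The withdrawn mice had 3.17, 0, 7.85, 6.64 and 0.990 CPM, where the 0 counts of mouse 2 allow up to 0.336 CPM. Both the 2 highest mice and the lowest mouse of the study were withdrawn. The log2 fold change of 0.66 had a 95% interval of −1.39 to 2.71 (adjusted p = 0.940 in edgeR), and without withdrawn mice 3, 4 and 5 it was −0.59. Creb3l3 (CREBH, a liver factor), which is no member of the 10, averaged 3.43 ± 1.90 CPM (SD, n = 6) among naïve and 2.40 ± 2.06 CPM (SD, n = 5) among withdrawn mice. Its log2 fold change was −0.52 (adjusted p = 0.949 in edgeR). Of the 4 family genes that could be tested, 2 thus had log2 fold changes above 0 and 2 below, with a median of 0.24.

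Among the sensors, Ern1 and Atf6 differed little relative to their spread. Ern1 (IRE1α; chr11:106394650-106487852, minus strand) was at 0.271 to 7.50 CPM in naïve mice (median 4.48). The withdrawn mice had 19.02, 2.13, 11.5, 4.30 and 7.57 CPM, so that 3 of them lay above every naïve mouse and 2 within the naïve range. The log2 fold change was 1.05 (95% interval −0.51 to 2.61, adjusted p = 0.838 in edgeR), and the exact permutation p was 0.255. The difference was 1.27 without withdrawn mice 3, 4 and 5 and −0.51 with the fibroblast covariate.

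Atf6 (chr1:170704674-170867771, minus strand) was at 41.6 to 89.1 CPM in naïve mice (median 64.7) and at 63.3, 20.7, 94.3, 59.3 and 84.9 CPM in withdrawn mice. Withdrawn mouse 2 had the lowest and withdrawn mouse 3 the highest level of all 11 mice. The means of 65.1 ± 21.1 (SD, n = 6) and 64.5 ± 28.5 CPM (SD, n = 5) gave a log2 fold change of −0.01 with an interval of −0.74 to 0.71, which leaves room for changes beyond 0.6 in either direction. It was −0.66 without withdrawn mice 3, 4 and 5 and −0.63 with the fibroblast covariate, with adjusted p of 0.821 and 0.912 in edgeR.

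Of the transcription factors downstream of the sensors, Xbp1 and Atf4 had the narrowest intervals of all members. Xbp1 (chr11:5520659-5525893, plus strand) lay at 228.5 to 360.5 CPM in naïve mice (median 298.3) and at 239.9, 252.4, 299.2, 257.9 and 280.6 CPM in withdrawn mice. All withdrawn mice fell within the naïve range. Its log2 fold change of −0.19 had a 95% interval of −0.49 to 0.12, which excludes 0.6 in both directions, and only 0.532% of all genes tested had an interval as narrow or narrower. Spliced and unspliced Xbp1 are summed in these counts.

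Atf4 (chr15:80255184-80257541, plus strand) was at 99.8 to 198.3 CPM in naïve mice (median 118.8) and at 83.6, 119.2, 115.5, 83.4 and 127.6 CPM in withdrawn mice. Withdrawn mice 1 and 4 were below every naïve mouse and naïve mouse 1 was above all others. The log2 fold change of −0.29 (95% interval −0.72 to 0.14, adjusted p = 0.836 in edgeR) excludes an increase of 0.6. Ddit3 (CHOP, a death-promoting target of ATF4; chr10:127290774-127296288, plus strand) lay at 15.4 to 29.3 CPM in naïve mice (median 25.6) and at 17.8, 32.7, 13.7, 18.1 and 30.1 CPM in withdrawn mice. Withdrawn mouse 3 had less than all 6 naïve mice, and withdrawn mice 1 and 4 had less than 5 of them. Withdrawn mice 2 and 5 had more than all naïve mice. The log2 fold change was −0.15 (95% interval −0.79 to 0.50, adjusted p = 0.963 in edgeR).

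Hspa5 (BiP; chr2:34771970-34777547, plus strand), whose promoter is shown above, was at 626.3 to 1543.1 CPM in naïve mice (median 926.1). The withdrawn mice had 1331.3, 365.8, 1795.4, 1531.3 and 942.8 CPM. The lowest and the highest mouse of the study were both withdrawn, mouse 2 and mouse 3. The log2 fold change of 0.32 (95% interval −0.40 to 1.04, adjusted p = 0.909 in edgeR) spans 0, and without withdrawn mice 3, 4 and 5 it was −0.21.

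**Figure D2:**
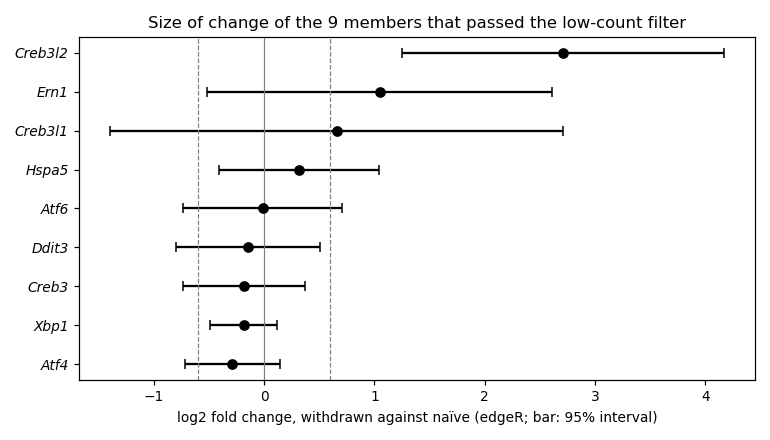
Log2 fold change of withdrawn against naïve mice from edgeR for the 9 genes that passed the low-count filter, with 95% intervals as bars, a grey line at 0 and dashed lines at −0.6 and 0.6. The interval of Creb3l2 alone lies on one side of 0, and that of Xbp1 is the narrowest.

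Withdrawn mouse 2 stood apart in several of these genes. It had the lowest level of all 11 mice for Hspa5, Atf6 and Creb3l1 and the highest for Ddit3 and Creb3l4. Withdrawn mice 2 and 4 had the largest shares of reads outside genes (39.6% and 48.1%) and the fewest counts on genes (8696939 and 7351567). With withdrawn mouse 2 left out, edgeR called 193 genes and none of the 9 members tested, and the adjusted p of Creb3l2 was 0.0772, the lowest on leaving out each mouse in turn (up to 0.623). When naïve mouse 5, which had the fewest genes detected, was left out as well, edgeR called 310 genes with Creb3l2 among them (adjusted p = 0.0277).

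Compared per kb of exon, the levels of the 10 genes spanned from Hspa5 at 251.8 ± 104.0 to Creb3l4 at 0.388 ± 0.504 CPM per kb (SD, n = 11 mice). Next to Hspa5 came Xbp1 with 88.0 ± 12.5, then Creb3 with 50.6 ± 18.6 and Atf4 with 50.3 ± 13.1 CPM per kb. Creb3 and Atf4 could not be ordered, since Creb3 was above Atf4 in 4 of 11 mice. Ddit3 followed at 13.9 ± 3.81 and Atf6 at 7.02 ± 2.54 CPM per kb, Atf4 being above Ddit3 in all 11 mice with no overlap of their ranges. Creb3l2 (1.69 ± 1.86), Creb3l1 (1.15 ± 0.92) and Ern1 (0.783 ± 0.629 CPM per kb) overlapped in their ranges, with Creb3l2 above Creb3l1 in 5 of 11 mice and Creb3l1 above Ern1 in 7. The place of Creb3l2 depended on the group. In naïve mice it averaged 0.478 ± 0.393, below Ern1 with 0.528 ± 0.296 and Creb3l1 with 0.910 ± 0.400 CPM per kb (SD, n = 6).

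Among all genes tested, Hspa5 stood at the 99.1st percentile of level per kb, Xbp1 at the 96.5th, Creb3 and Atf4 both at the 93.6th. Creb3l2 stood at the 31.8th, Creb3l1 at the 24.3rd and Ern1 at the 17.3rd. The ER membrane factors of the CREB3 family other than Creb3 were therefore minor transcripts in these cells, also Creb3l2 in withdrawn mice, with a mean of 3.14 ± 1.91 CPM per kb (SD, n = 5).

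**Figure D3:**
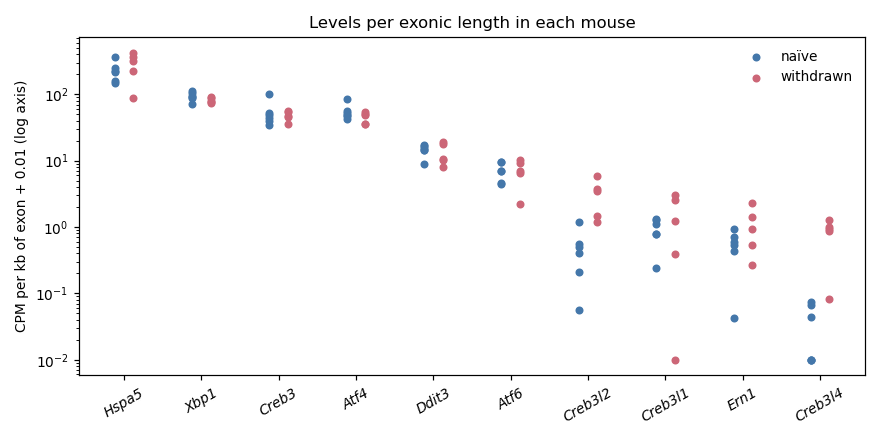
CPM per kb of exon, plus 0.01, on a log axis for each gene in every naïve (blue) and withdrawn (red) mouse, in order of mean level. Points at the bottom edge are mice with 0 counts. Hspa5 is highest at a mean of 251.8 and Creb3l4 lowest at 0.388 CPM per kb.

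Markers of other cell types were followed beside the pathway. The summed level of 10 fibroblast markers was 0.0677 to 75.3 CPM in naïve mice (median 21.7), and 1352.6, 21.2, 681.3, 994.7 and 233.7 CPM in withdrawn mice 1 to 5. Thus 4 of 5 withdrawn mice lay above all naïve mice. All 8 of the markers that could be tested had log2 fold changes above 0, 7 with an unadjusted p under 0.05, and DESeq2 called Col1a1, Dcn and Ogn. Lum and Igf2, which did not pass the filter, averaged lower in withdrawn mice. They went from 1.36 to 0.910 CPM and from 0.468 to 0.0916 CPM. Without withdrawn mice 3, 4 and 5, 8 of 10 markers were above 0, 3 had an unadjusted p under 0.05, and DESeq2 called none. No marker of the list was at 0 in every mouse. In bulk RNA a larger share of such cells and more RNA per cell cannot be told apart.

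Other marker sums overlapped between the groups. Endothelial markers summed to 3.18 to 775.4 CPM in naïve mice (median 309.4) and 39.5 to 650.6 CPM in withdrawn mice (median 67.3), with 6 of 8 log2 fold changes below 0. Astrocyte markers summed to 33.7 to 205.0 and 33.4 to 421.3 CPM. Of the 7 tested, 4 were below 0 (median −0.13), while Gja1, a gap junction gene, went from 15.3 to 186.8 CPM on average. Microglia markers summed to 8.81 to 24.9 and 8.28 to 44.3 CPM. Of the GABAergic markers 5 of 6 were above 0, while Sst, the somatostatin gene, went from 247.4 to 6.53 CPM on average (log2 fold change −5.33, unadjusted p = 0.0221). Sst ran from 0.0677 to 699.2 CPM in naïve mice and from 0 to 32.6 CPM in withdrawn mice, so that the groups overlapped. With all mice kept in, DESeq2 did not call Sst (adjusted p = 0.398). The DESeq2 fits without withdrawn mice 3, 4 and 5 (adjusted p = 0.00296) and with the fibroblast covariate (adjusted p = 0.00355) did call it.

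The wider pathway was read through lists of genes by role, in the same edgeR fit. Over all 17093 genes tested, 51.8% had a log2 fold change above 0, the median was 0.021, and 5% had an unadjusted p under 0.05 with higher levels and 2.22% with lower levels in withdrawn mice. No gene of any list was called by edgeR, also without withdrawn mice 3, 4 and 5 or with the fibroblast covariate. Of all genes tested, 50.4% were above 0 without the 3 mice and 45.8% with the covariate.

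Over all mice, more ER chaperones and folding enzymes were above 0 than below, which did not hold without withdrawn mice 3, 4 and 5. Of 23 genes, all tested, 17 had a log2 fold change above 0, with a median of 0.23, and 4 had an unadjusted p under 0.05, all higher. These were Dnajc3 (p58IPK, a co-chaperone of BiP that also inhibits PERK), P4hb and Pdia4 (protein disulfide isomerases) and Txndc5 (a further oxidoreductase). Dnajc3 went from 62.4 ± 16.2 CPM (SD, n = 6) to 168.3 ± 98.8 CPM (SD, n = 5). Its log2 fold change was 1.43 (SE 0.34) with an adjusted p of 0.167 in edgeR and of 0.0160 in DESeq2, and it alone of the list was called by DESeq2. Without the 3 mice Dnajc3 differed by 0.89 in edgeR, and with the fibroblast covariate by 0.35. DESeq2 then no longer called it, with adjusted p of 0.407 and 0.756. P4hb (0.54, SE 0.19) and Txndc5 (0.46, SE 0.19) had the next smallest p, with adjusted p of 0.461 and 0.617 in edgeR. Pdia3, the most abundant after Hspa5, had a log2 fold change of 0.21. The summed level of the list was 3304 to 5092 CPM in naïve and 2909 to 6174 CPM in withdrawn mice, so that the groups overlapped. Of the 23 genes, 9 were above 0 without withdrawn mice 3, 4 and 5 (median −0.07), and with the fibroblast covariate 15 were (median 0.08).

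Of the 18 chaperone genes with a promoter window, 7 carried an ERSE (38.9%, against 0.137% of all genes). Their elements are shown because they are the shared sequence through which ATF6 and XBP1 act on this group, with the fixed bases in capitals, each 5′ to 3′ on its own strand (GRCm38.p6).
Hspa5, chr2:34772025-34772043: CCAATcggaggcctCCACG
Hsp90b1, chr10:86705638-86705656: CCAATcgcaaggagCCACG
Hsp90b1, second element, chr10:86705533-86705551: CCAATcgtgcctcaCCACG
Calr, chr8:84847075-84847093: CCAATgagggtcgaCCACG
Canx, chr11:50325800-50325818: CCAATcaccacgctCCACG
Dnajc3, chr14:118937827-118937845: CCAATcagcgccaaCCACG
Pdia6, chr12:17266491-17266509: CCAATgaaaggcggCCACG
Creld2, chr15:88819520-88819538: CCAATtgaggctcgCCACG

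The 7 chaperone genes with an ERSE differed little from those without one. Of the 7, 6 had a log2 fold change above 0, with a median of 0.25 and a range of −0.06 (Pdia6) to 1.43 (Dnajc3). Of the 11 genes whose window held no ERSE, 8 were above 0, with a median of 0.22. These are descriptions of levels in one comparison and not a test of the element.

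Genes of ER-associated degradation, which exports misfolded protein to the proteasome, were similar. Of 20 genes tested, 15 had a log2 fold change above 0 (median 0.14), and Edem1 and Ube2g2 had an unadjusted p under 0.05. Edem1, a lectin that extracts misfolded glycoproteins and a known target of XBP1, went from 14.0 ± 7.22 CPM (SD, n = 6) to 36.1 ± 14.6 CPM (SD, n = 5), with a log2 fold change of 1.37 (SE 0.57, adjusted p = 0.623 in edgeR). Ube2g2, a ubiquitin-conjugating enzyme, had a log2 fold change of 0.43 and Edem2 of 0.63. The abundant Os9 and Selenos had 0.01 and 0.32. An ERSE was found in the promoters of Syvn1 and Derl3, and an ERSE-II in that of Herpud1, whose log2 fold change was 0.11. In this list too the direction did not hold without the 3 mice with conflicting labels, where 9 of 20 genes were above 0 (median −0.06). That fit kept 2 withdrawn mice, and whether the turn came from the mice left out or from those kept was not tested. With the fibroblast covariate 10 were (median 0.0023), and Edem1 was at −0.0071.

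The PERK and ATF4 genes did not share this direction. Of 25 genes tested, 9 had a log2 fold change above 0 and 16 below, with a median of −0.15. At an unadjusted p under 0.05, Nupr1 and Eif2ak2 were higher and Psat1 and Asns lower in withdrawn mice. Psat1, an enzyme of serine synthesis, went from 29.2 ± 6.94 CPM (SD, n = 6) to 16.2 ± 4.99 CPM (SD, n = 5), and Asns, the asparagine synthetase, from 315.9 ± 72.2 CPM (SD, n = 6) to 235.4 ± 57.6 CPM (SD, n = 5). Their log2 fold changes were −0.85 (SE 0.29) and −0.42 (SE 0.20), with adjusted p of 0.456 and 0.692 in edgeR. Nupr1, a small stress-induced nuclear protein, went from 2.30 ± 1.45 CPM (SD, n = 6) to 12.5 ± 8.71 CPM (SD, n = 5), with a log2 fold change of 2.44 (SE 0.87). Eif2ak2, which encodes the RNA-activated eIF2α kinase PKR, had a log2 fold change of 2.27 (SE 1.03), and Slc3a2, a subunit of amino acid transporters, of −0.31. Without withdrawn mice 3, 4 and 5, again 9 of 25 genes were above 0 (median −0.37), and with the fibroblast covariate 12 were (median −0.0023), with Psat1 at −1.03 and Nupr1 at 0.49.

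The CARE, to which ATF4 binds with C/EBP partners, occurred in 7 of 23 windows of this list (30.4%, against 4.5% of all genes). They are shown for genes on both sides of 0, with the fixed bases in capitals.
Asns, chr6:7693224-7693232: TGATGaAAc
Chac1, chr2:119351048-119351056: TGATGcAAc
Nupr1, chr7:126625573-126625581: TGATGcAAt
Genes with the same element thus lay on both sides of 0, at −0.42 (Asns), −0.37 (Chac1) and 2.44 (Nupr1) on the log2 scale. Of the 7 genes with a CARE, 4 were above 0, with a median of 0.29, and of 16 genes with a window that held none, 4 were above 0, with a median of −0.17.

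A further pair of lists concerns what the CREB3 family acts with. Of 11 tested genes for sensors, their partners and the Golgi proteases, 5 were above 0 (median −0.01). Mbtps1, the site-1 protease that cleaves ATF6 and the CREB3 factors, went from 55.0 ± 17.4 CPM (SD, n = 6) to 105.5 ± 50.9 CPM (SD, n = 5), with a log2 fold change of 0.94 (SE 0.32, adjusted p = 0.428 in edgeR). It was the only gene of that list with an unadjusted p under 0.05. Its log2 fold change was 0.98 without withdrawn mice 3, 4 and 5 and 0.090 with the fibroblast covariate. Of this list, 6 of 12 genes were above 0 without the 3 mice (median −0.07) and 5 of 11 with the covariate (median −0.03). The site-2 protease Mbtps2 had −0.11, PERK (Eif2ak3) 0.20, Atf6b −0.12, the IRE1 adaptor Traf2 0.44, the tRNA ligase Rtcb, which joins spliced Xbp1, −0.05 and Bax −0.10. Mbtps2 shares 2867 exonic bases with Yy2 on the same strand.

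Of 24 genes tested for ER export and Golgi transport, 16 were above 0, with a median of 0.05, and Sec61a1 and Sec24d had an unadjusted p under 0.05. Sec61a1, the channel through which new proteins enter the ER, went from 87.1 ± 19.5 CPM (SD, n = 6) to 150.2 ± 34.3 CPM (SD, n = 5). Its log2 fold change was 0.79 (SE 0.20), with an adjusted p of 0.225 in edgeR and of 0.0315 in DESeq2, the only DESeq2 call of that list. Without withdrawn mice 3, 4 and 5 DESeq2 gave 0.77 (adjusted p = 0.423) and with the fibroblast covariate 0.62 (adjusted p = 0.408), so that the call was lost in both. Of the list, 9 of 24 genes were above 0 without the 3 mice (median −0.10) and 11 with the covariate (median −0.01). The COPII coat subunits Sec24d and Sec24c had 0.71 and 0.42, and the abundant Sar1b and Arf4 −0.24 and 0.16. Other CREB and ATF factors outside the ER membrane had none of 11 genes at an unadjusted p under 0.05 (median −0.03), with Atf2 at 0.23, Atf1 at −0.55, Crtc1 at −0.18 and Crebzf at −0.03.

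**Figure D4:**
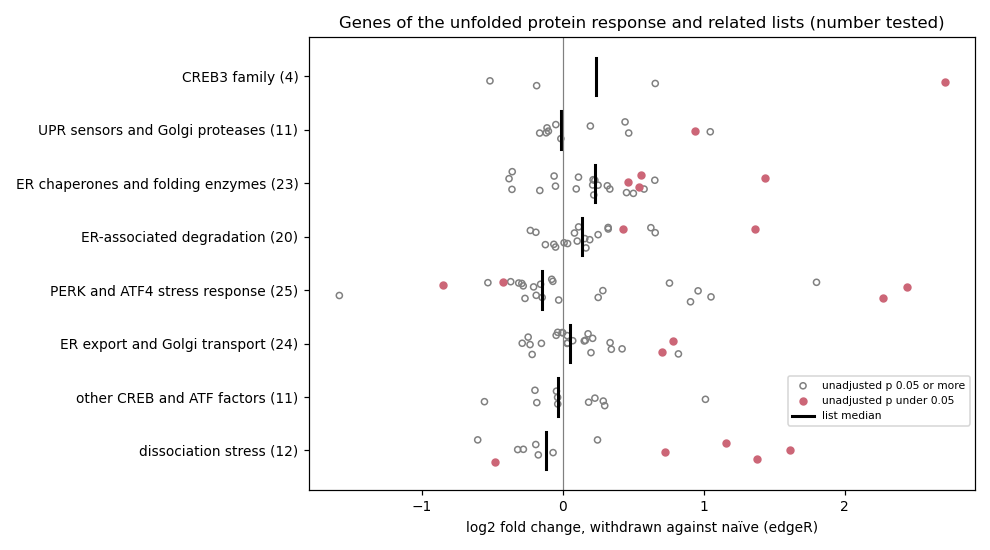
Log2 fold change of withdrawn against naïve mice from edgeR for each gene of 8 lists, with the number tested in brackets, red points for an unadjusted p under 0.05, open points for the others and a black bar at the list median. Over all 11 mice the medians of the chaperones (0.23) and of ER-associated degradation (0.14) lie right of 0, and left of it without withdrawn mice 3, 4 and 5 (−0.07 and −0.06). That of the PERK and ATF4 genes (−0.15) lies left of 0.

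The fibroblast sums can be set beside the family members mouse by mouse. Creb3l2 was highest in withdrawn mice 4, 1 and 3, which also had the highest sums, and withdrawn mouse 2, with a sum of 21.2 CPM, had 10.5 CPM of Creb3l2. With the mean log2 level of the fibroblast markers as a covariate, Creb3l2 differed by 1.19 on the log2 scale in edgeR (adjusted p = 0.889) and by 1.25 in DESeq2 (adjusted p = 0.479). Withdrawn mice 1, 3 and 5 had high sums and 23, 31 and 22 counts of Creb3l4, withdrawn mouse 2 had 19 counts at its low sum and withdrawn mouse 4 had 1 count at its high sum, whereas the naïve mice were low in both. For Creb3l4, DESeq2 with the covariate gave a log2 fold change of 5.72 (adjusted p = 0.0290). Creb3l1 had its highest levels in withdrawn mice 3 and 4. With the covariate, the edgeR log2 fold changes of Creb3l1 and Ern1 were −1.13 and −0.51. What part such cells had in these levels was not tested beyond these values.

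**Figure D5:**
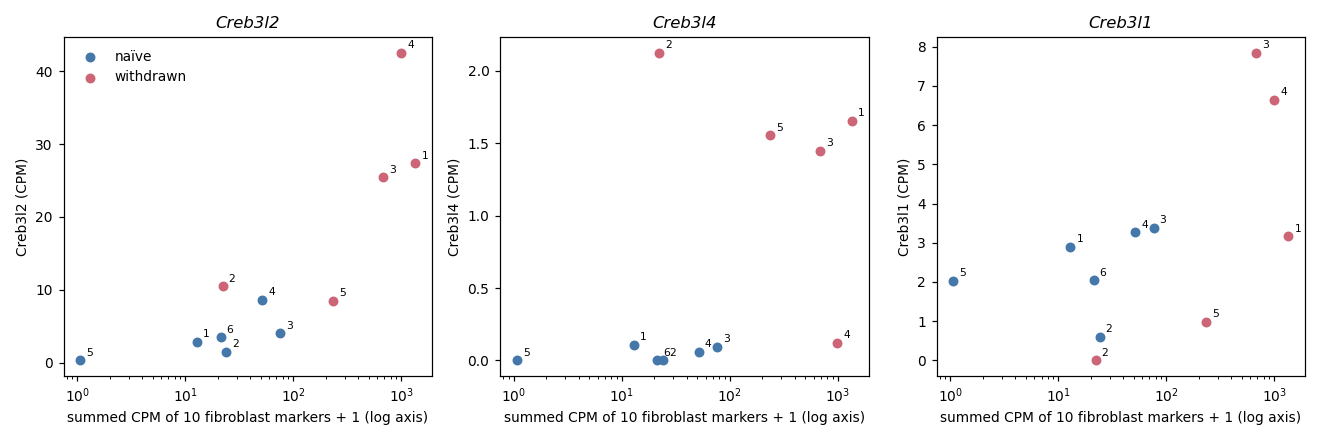
Level of Creb3l2, Creb3l4 and Creb3l1 in CPM against the summed CPM of 10 fibroblast markers plus 1 on a log axis, with 1 point per mouse (naïve blue, withdrawn red, mouse numbers beside the points). Withdrawn mouse 2 has a sum of 21.2 CPM with 10.5 CPM of Creb3l2, and withdrawn mouse 4 has a sum of 994.7 CPM with 0.123 CPM of Creb3l4.

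Genes that respond to tissue dissociation were also compared, since the cells were released with papain before sorting. Of 12 genes, Fos, Jun, Dusp1 and Hspa1a were higher and Hspa8 was lower in withdrawn mice at an unadjusted p under 0.05, with a median of −0.12 over the list. Fos went from 92.5 ± 33.6 CPM (SD, n = 6) to 283.4 ± 303.8 CPM (SD, n = 5), with a log2 fold change of 1.61 (SE 0.50). Jun had 1.38, Hspa8 −0.48 and Egr1 −0.17. At the same threshold none of the 12 was higher and 2 were lower without withdrawn mice 3, 4 and 5. The part of dissociation in the levels of the 10 genes was not tested.

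The genes whose log2 CPM varied most like each member over the 11 mice are given as a description, and the mice share depth and group. For Creb3l2 these were Rassf2 and Slc12a7 (Pearson r 0.97 for both) and Slc26a2 (0.966), all with higher levels in withdrawn mice, at log2 fold changes of 3.52, 3.94 and 4.48. For Hspa5 they included the ER genes Pdia3 (0.941) and Creld2 (0.923). Hspa5 and these ER genes thus varied together between mice with no call between the groups. For Creb3l1 they were Fam120a (0.953), Derl2 of ER-associated degradation (0.913) and Rassf8 (0.91).

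For Atf4 the closest were Dnajc30, Grina and Stmn2 (0.911 to 0.936), for Ddit3 Usp4, Camkk1 and Gm12371 (0.923 to 0.954), and for Ern1 Eef2, Adamts18 and Mccc2 (0.928 to 0.93). For Atf6 they included Fam149a and Zfp747 (0.927 and 0.915), for Xbp1 they were Rabgef1, Ints4 and Atat1 (0.87 to 0.875), and for Creb3 Set, Hax1 and Ppp1ca (0.926 to 0.929). Among the members themselves, the strongest relation was that of Creb3l1 with Hspa5 (r = 0.83, Spearman's rho 0.68), and the lowest that of Creb3l1 with Ddit3 (r = −0.67, rho −0.68), both over 11 mice in which withdrawn mouse 2 was at the end of all 3 genes.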

How the data were processed

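Single-end RNA-seq of sorted mPFC CRF1+ cells was made with SMARTseq HT from 6 naïve and 5 withdrawn mice. The authors trimmed reads with cutadapt, mapped them with STAR to GRCm38 (Ensembl annotation) and counted them per gene with HTSeq. The deposited values are these raw counts. Symbols, exon lengths and positions came from GENCODE M21 on the same assembly, and promoter sequences from RefSeq (GRCm38.p6). Reads outside genes (5.77% to 48.1% per mouse) were left out.

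Withdrawn and naïve mice were compared with edgeR 4.0.16 in R 4.3.3 (TMM, filterByExpr with a minimum count of 10 and a minimum total of 15, quasi-likelihood test, Benjamini-Hochberg adjustment over all genes tested). DESeq2 1.42.0 and limma 3.58.1 (voom with quality weights) were alternatives. Log2 CPM used a prior count of 2, and single genes were compared by two-sided exact permutation tests. Named were the 10 members, Creb3l3, Mbtps1, Mbtps2, Eif2ak3, Atf6b and, per list, the 3 genes with the smallest p and the 2 with the highest level per kb, and for likeness the 3 genes with the highest r. Some of the latter are not reported here. Pdia4, Dusp1, Hspa1a, Gja1, Sst, the markers called by DESeq2 and the genes whose motifs are shown were named after their values were seen. Members and lists were chosen with earlier results of these data known. The ER export list named Sec12, which matched no symbol. The list values without withdrawn mice 3, 4 and 5 and with the fibroblast covariate were added after seeing the data. The fits were tested on simulated data. Library pairs within groups differed by a chi-square per degree of freedom of at least 29.3, so no library duplicated another of its own group. Pairs of a naïve and a withdrawn library were not compared.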

Additional observations from a re-analysis of the deposited data

Results flagged for a closer look

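In 4 of the 20 sets of values (10 genes in each group), 1 mouse lay far from the others on the log2 CPM scale by Dixon's criterion, where chance gives about 1. Creb3l4 in withdrawn mouse 4 had a log2 CPM of −1.91 (1 count, 0.123 CPM), below the other 4 withdrawn mice. Creb3l1 in naïve mouse 2 had −0.42 (11 counts, 0.604 CPM), Ern1 in naïve mouse 5 had −1.27 (4 counts, 0.271 CPM) and Ddit3 in naïve mouse 1 had 3.95 (143 counts, 15.4 CPM), each the lowest of the naïve mice. Naïve mouse 5 also had the fewest genes detected (15585).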

How the results depend on the processing

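edgeR called 1 gene over all genes tested. DESeq2 called 362 genes (372 without Cook's cutoff), edgeR without a low-count filter 137, with at least 10 counts in every mouse 30, and with a covariate for genes detected 26. Without the 3 mice with conflicting labels, with the replicate block, with fibroblast markers as a covariate, or at an adjusted p of at most 0.01, it called 0. Leaving out each mouse gave 0 to 193 genes (193 without withdrawn mouse 2, 6 without naïve mouse 2), and 310 genes were called without naïve mouse 5 and withdrawn mouse 2, a setting added after seeing the data. Members called were 0 in edgeR and in all its leave-one-out fits, 2 in DESeq2 with or without Cook's cutoff, and 1 (Creb3l2) without naïve 5 and withdrawn 2. In DESeq2 fits added after seeing the data, both stayed called without any 1 mouse (adjusted p 5.53e-05 to 0.0497 for Creb3l2 and 8.13e-05 to 0.0191 for Creb3l4), 0 were called without the 3 mice and 1 (Creb3l4) with the covariate. Members at an exact permutation p under 0.05 were 2, 2 to 3 on leaving out each mouse (Xbp1 added without naïve mouse 2), and 1 without the 3 mice. The permutation test was not run over all genes, so these counts have no share to be set against. In edgeR 7.22% of all genes tested had an unadjusted p under 0.05. Same-numbered mice of both groups are different animals. Their deviations from the group means correlated at −0.20 to 0.18, with 1 of 5 withdrawn mice closest to its own number. These values showed no pairing by number, but so few cannot exclude that same-numbered mice were processed together. With the replicate block 0 members were called. Signs turned for Creb3 (log2 fold change 0.14 with voom, 0.47 with the fibroblast covariate, 0.12 without naïve 5 and withdrawn 2, −0.28 to 0.11 on leaving out each mouse), Creb3l1 (−0.24 with the replicate block, −1.13 with the covariate, −0.59 without the 3 mice) and Atf6 (0.0081 with DESeq2 size factors, 0.0074 with DESeq2, 0.073 with voom, 0.024 with at least 10 counts in every mouse, 0.12 without naïve 5 and withdrawn 2, −0.20 to 0.21 on leaving out each mouse). With the covariate they also turned for Ern1 (−0.51) and Ddit3 (0.16), and without the 3 mice for Hspa5 (−0.21). Atf6 was −0.66 without the 3 mice. In fits of the lists added after seeing the data, the medians of the chaperones and of ER-associated degradation went from 0.23 and 0.14 to −0.07 and −0.06 without the 3 mice. The causes were not tested. Xbp1 and Atf4 stayed below 0 in all 23 alternatives (−0.35 to −0.07 and −0.41 to −0.0096), and Creb3l2 above 0 in all 22 (1.19 to 3.23). The 1 count of Creb3l4 in withdrawn mouse 4 lies under the floor of 3. Withdrawn mouse 2 had 19 counts of Creb3l4 at 8696939 counts on genes, against 7351567 in withdrawn mouse 4. The cause of this difference was not tested.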
